A study of Mus musculus with 24 samples.

Results

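The integrated stress response was followed through 10 genes, chosen by name: the transcription factors Atf3, Atf4 and Ddit3, and the output genes Chac1, Trib3, Asns, Psat1, Phgdh, Sesn2 and Ddit4. All 10 were among the 22165 genes of the table and among the 11878 genes that passed the filter on low counts. The study compared bone marrow-derived macrophages (BMDMs) of WT mice with those of Irg1-/- mice, which lack the enzyme that makes itaconate from a metabolite of the citric acid cycle. RNA-seq was done in 8 groups of 3 libraries, 24 in all, each library labelled as an independent culture. Both genotypes were on a C57BL/6N background, mice were 8 to 20 weeks old, and marrow was cultured for 7 days with 20 ng/mL M-CSF. In each genotype, cells were left without LPS (Unstim.), given 100 ng/mL LPS for 3 h after a mock first stage (LPS 3h), or given LPS for 24 h (LPS 24h). The last group was given LPS for 24 h, rested for 1 h and given LPS again for 3 h (LPS 24h->LPS 3h). In the paper's protocol, cells with and without LPS in the first 24 h both had this rest before the 3 h of LPS. The labels name no conditional allele, transgene or Cre, and pooling of mice is not stated.

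In the integrated stress response, kinases that sense a shortage of amino acids, unfolded proteins in the endoplasmic reticulum (ER), viral RNA or lack of heme phosphorylate the translation factor eIF2. Translation falls in general, while the mRNA of Atf4 is translated better, and the ATF4 protein then switches on genes for amino acid supply, redox balance and, under lasting stress, cell death. Atf3 is an early gene of this response and also an early LPS-induced gene of macrophages, where its protein limits the transcription of cytokine genes. The libraries measure mRNA, so eIF2 phosphorylation and the amount of ATF4 protein were not measured.

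Promoters were read from RefSeq sequence of GRCm38.p6 as windows of 300 bases, from 250 before to 50 after the annotated start, and all 10 genes matched. Windows were searched on both strands for TGATGNAA, the composite C/EBP-ATF element through which ATF4 acts with its partners, for the cAMP response element TGACGTCA, and for the AP-1 element TGANTCA. TGATGNAA occurred in Atf3, Chac1, Trib3 and Asns, against 3.97% of all 32851 windows. TGANTCA occurred in Ddit3, against 7.81% of windows. TGACGTCA, present in 1.79% of windows, was found in none of the 10 genes, and no matches overlapped. The 5 windows that hold a match are shown 5′ to 3′ because they place the element in each gene, with the match in capitals.
Atf3, chr1:191183284-191183583, minus strand: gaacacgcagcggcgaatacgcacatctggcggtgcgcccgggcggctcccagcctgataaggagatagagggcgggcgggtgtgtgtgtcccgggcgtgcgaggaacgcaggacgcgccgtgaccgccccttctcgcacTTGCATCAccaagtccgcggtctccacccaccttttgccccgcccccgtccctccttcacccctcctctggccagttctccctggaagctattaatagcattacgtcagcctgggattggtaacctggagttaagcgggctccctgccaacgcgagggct
Ddit3, chr10:127290543-127290842, plus strand: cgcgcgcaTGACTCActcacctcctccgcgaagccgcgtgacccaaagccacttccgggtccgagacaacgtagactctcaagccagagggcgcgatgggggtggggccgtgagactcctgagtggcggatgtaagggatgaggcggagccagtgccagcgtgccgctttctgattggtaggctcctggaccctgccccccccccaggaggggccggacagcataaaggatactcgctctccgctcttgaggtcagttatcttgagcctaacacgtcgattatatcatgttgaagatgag
Chac1, chr2:119350992-119351291, plus strand: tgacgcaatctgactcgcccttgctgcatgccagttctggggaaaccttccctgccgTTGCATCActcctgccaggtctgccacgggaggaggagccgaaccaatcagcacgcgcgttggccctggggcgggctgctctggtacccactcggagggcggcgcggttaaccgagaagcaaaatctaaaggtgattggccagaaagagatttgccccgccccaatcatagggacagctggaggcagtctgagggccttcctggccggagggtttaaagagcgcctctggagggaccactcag
Trib3, chr2:152344011-152344310, minus strand: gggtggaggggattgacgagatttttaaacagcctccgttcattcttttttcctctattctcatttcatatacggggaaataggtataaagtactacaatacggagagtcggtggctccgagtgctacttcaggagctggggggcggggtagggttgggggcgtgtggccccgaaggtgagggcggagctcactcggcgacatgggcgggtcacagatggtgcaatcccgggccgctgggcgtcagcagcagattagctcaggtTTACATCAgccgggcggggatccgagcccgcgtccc
Asns, chr6:7693160-7693459, minus strand: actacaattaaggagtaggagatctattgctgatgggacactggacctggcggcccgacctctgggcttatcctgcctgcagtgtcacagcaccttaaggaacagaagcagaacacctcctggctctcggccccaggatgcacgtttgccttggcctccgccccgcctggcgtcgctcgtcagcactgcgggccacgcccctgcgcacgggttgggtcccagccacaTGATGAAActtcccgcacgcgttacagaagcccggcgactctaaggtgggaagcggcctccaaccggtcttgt
The match lies at -110 in Atf3, -242 in Ddit3, -193 in Chac1, 15 in Trib3 and -23 in Asns, counted from the annotated RefSeq start. For Atf3 this start lies well inside the gene as annotated by GENCODE M21, which on the minus strand begins at 191218039. A match describes letters in a window, and binding of a factor was not measured. The windows of Atf4, Psat1, Phgdh, Sesn2 and Ddit4 held none of these letters.

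Libraries held 3927378 to 20430359 counts on genes, with a median of 11539055.5. Levels are given as normalized CPM, counts relative to library size (CPM) scaled by edgeR's TMM factors. A count of 3, taken as the floor, was worth 0.127 to 0.566 normalized CPM, so the low counts of Chac1, Ddit4 and Phgdh gave the least precise values. Acod1, the gene targeted in Irg1-/- mice, was at 15640 to 28060 normalized CPM in WT LPS 3h, 3794 to 5799 in WT LPS 24h and 10380 to 16120 in WT LPS 24h->LPS 3h. It was at 1.58 to 26.4 in all Irg1-/- libraries given LPS. In Unstim. libraries Acod1 was at 5.82 to 10.0 in WT and 7.79 to 11.9 in Irg1-/-, so it does not tell these genotypes apart. All 7 macrophage markers were detected, with a summed level of 3242 to 9690 normalized CPM. The 7 neutrophil and granulocyte precursor markers summed to 412 to 718 normalized CPM in Unstim. and LPS 3h libraries and to 65.2 to 231 in libraries of the later groups, LPS 24h and LPS 24h->LPS 3h. The 5 fibroblast or stromal cell markers summed to 264 to 434 in the former and 103 to 246 in the latter. The 4 dendritic cell markers summed to 1.64 to 9.99 in the former and at most 2.73 in the latter. Lists for T, B, erythroid and mast cells summed to at most 2.45 in any library. Among the libraries, WT LPS 24h replicate 3 stood apart on the third principal component, which held 4.99% of the variance, and results that rest on it are given without it. These markers moved with every comparison between early and late groups below, and their part in the results was not tested. In bulk samples, fewer cells of a type and less RNA per cell cannot be told apart.

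LPS changed members of the response in both genotypes. In WT, 3 of 10 genes passed the test after LPS 3h against Unstim. (edgeR's quasi-likelihood test, adjusted p under 0.05 over all genes tested), 2 higher and 1 lower. Among all genes tested, 32% passed, 15.8% higher and 16.3% lower, so this WT count is near the share of all genes. In Irg1-/-, 7 of 10 passed after LPS 3h, 4 higher and 3 lower, beside 35.9% of all genes, 17% higher and 18.9% lower. After LPS 24h against Unstim., 4 of 10 passed in WT, 3 higher and 1 lower, beside 16.2% of all genes, 9.25% higher and 6.98% lower. In Irg1-/-, 4 of 10 passed after LPS 24h, 2 higher and 2 lower, beside 13.7% of all genes, 7.31% higher and 6.38% lower.

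In WT, 1 of 10 genes passed for LPS 24h->LPS 3h versus LPS 24h, and it was lower, beside 3.99% of all genes, 2.46% higher and 1.53% lower. In WT, 3 members (Atf4, Psat1 and Sesn2) had an unadjusted p under 0.05, and DESeq2 called 2, beside 6.45% of all genes. In Irg1-/-, 0 of 10 passed in the edgeR test, 0 had an unadjusted p under 0.05 and 0 passed with DESeq2, beside 5.14% of all genes, 3.44% higher and 1.7% lower. With 10 members, these counts are near the shares of all genes. For LPS 24h->LPS 3h versus LPS 3h, 4 of 10 passed in WT, 3 higher and 1 lower, beside 25.5% of all genes, 12.4% higher and 13.1% lower. In Irg1-/-, 7 of 10 passed, 4 higher and 3 lower, beside 27.2% of all genes, 13.1% higher and 14.1% lower. These comparisons share libraries, so their counts are not independent.

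The median log2 fold change of the 10 genes for LPS 3h against Unstim. was 0.78 in WT and 1.40 in Irg1-/-, beside -0.18 and -0.20 over all genes tested. For LPS 24h against Unstim. it was 1.22 and 0.86, beside 0.00 over all genes in each genotype. The label prefix is read here as a library pool, though the labels do not say what it stands for. All 6 Unstim. libraries carry 1 label prefix, and no Irg1-/- library given LPS carries it. Prefix and LPS against Unstim. therefore cannot be told apart within Irg1-/-. There, with the prefix as a term, 1 of the 7 calls at LPS 3h (Atf3) remained. Irg1-/- LPS 24h->LPS 3h and LPS 3h share 1 prefix, with 1 library each. For that comparison 2 of the 7 calls (Ddit3 and Psat1) remained with the term. Within the shared prefix, the log2 difference was 1.84 for Atf4, 2.01 for Ddit3, 2.34 for Trib3 and -0.53 for Sesn2. It was -1.1 for Atf3, -2.97 for Psat1 and -3.67 for Phgdh. Of all genes, 19.9% and 11.8% passed with that term. In WT the prefix of the Unstim. libraries held 1 library of each LPS group.

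**Figure D1:**
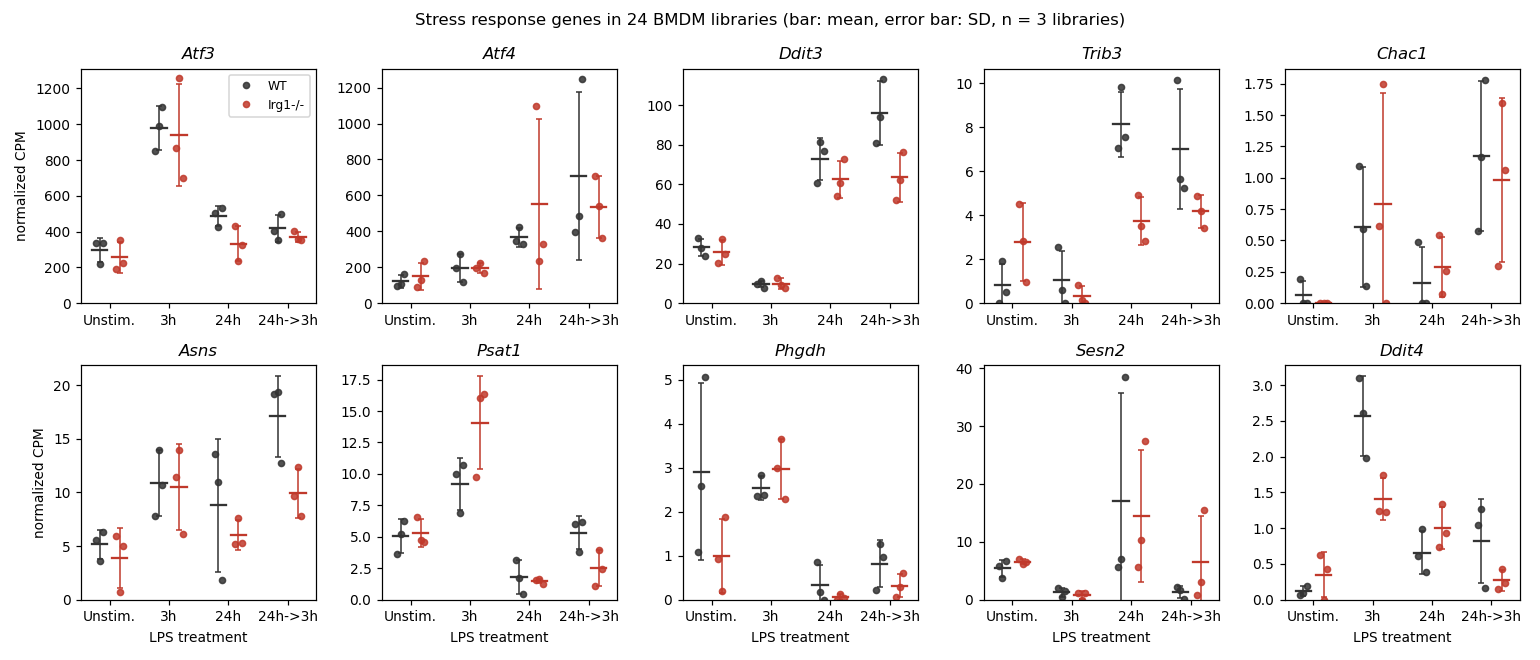
Level of each of the 10 genes in normalized CPM (y axis, from 0) by LPS treatment (x axis) in WT and Irg1-/- BMDMs. Points are libraries, horizontal bars means and error bars the SD of 3 libraries. Atf3 stood highest in both LPS 3h groups, while Ddit3 was lowest there and highest in the LPS 24h and LPS 24h->LPS 3h groups.

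Atf3, at chr1:191170296-191218039 on the minus strand (GRCm38, GENCODE M21), rose early and was lower again at the later times. WT Unstim. libraries held 338, 220 and 336 normalized CPM, and WT LPS 3h libraries held 852, 989 and 1097. Irg1-/- Unstim. libraries held 190, 354 and 224, and Irg1-/- LPS 3h libraries held 866, 1257 and 699. Each LPS 3h library lay above each Unstim. library in both genotypes. Atf3 rose 3.29-fold in WT (log2 1.72 ± 0.30 SE, adjusted p = 3.01e-05) and 3.68-fold in Irg1-/- (log2 1.88 ± 0.30 SE, adjusted p = 8.5e-06). Within the shared prefix, the log2 difference in WT was 1.91, from 1 LPS 3h library against 3 Unstim. libraries.

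After LPS 24h, Atf3 was at 503, 426 and 532 normalized CPM in WT and at 432, 237 and 325 in Irg1-/-. The WT libraries did not overlap Unstim., but the difference did not pass the test (log2 0.71, adjusted p = 0.10), and the Irg1-/- libraries overlapped Unstim. After LPS 24h->LPS 3h it was at 405, 351 and 500 in WT and at 404, 357 and 352 in Irg1-/-, within or near the range at LPS 24h. Against LPS 3h, the second treatment left Atf3 2.34-fold lower in WT (log2 -1.23 ± 0.29 SE, adjusted p = 0.00232) and 2.54-fold lower in Irg1-/- (log2 -1.34 ± 0.30 SE, adjusted p = 0.000886). In WT the difference was -1.07, -1.50 and -1.13 within the 3 prefixes that hold both groups. In order of mean, the LPS 3h groups stood first, overlapped each other and did not overlap the next group, WT LPS 24h. Every later neighbour in that order overlapped the one before it.

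Atf4, the central transcription factor of the response, lies at chr15:80255184-80257541 on the plus strand. It was at 92.8, 108 and 161 normalized CPM in WT Unstim. and at 196, 275 and 117 in WT LPS 3h, which overlap. After LPS 24h the WT libraries held 346, 424 and 326, all above Unstim. Atf4 rose 3.04-fold there (log2 1.60 ± 0.46 SE, adjusted p = 0.0146). This call was lost in 3 of the 6 fits that left out 1 library, with the largest adjusted p, 0.0916, without WT Unstim. replicate 1. Within the shared prefix the log2 difference was 1.48. In Irg1-/-, Unstim. libraries held 90.2, 126 and 234 and LPS 24h libraries 1098, 232 and 330, so that 1 library lay far above the rest and the groups overlapped. The 3.68-fold rise (log2 1.88 ± 0.47 SE, adjusted p = 0.00476) fell to log2 0.93 without Irg1-/- LPS 24h replicate 1, with an adjusted p of 0.209.

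After LPS 24h->LPS 3h, Atf4 was at 396, 486 and 1248 normalized CPM in WT and at 705, 543 and 361 in Irg1-/-. Again 1 library, WT replicate 3, held far more than the others. Against LPS 3h, Atf4 was 3.62-fold higher in WT (log2 1.86 ± 0.47 SE, adjusted p = 0.00357) and 2.74-fold higher in Irg1-/- (log2 1.46 ± 0.46 SE, adjusted p = 0.0183), with no overlap in either. With replicate 3 of WT LPS 24h->LPS 3h left out, the WT value was 1.11 with an adjusted p of 0.0806. Without Irg1-/- LPS 24h->LPS 3h replicate 1 the Irg1-/- value was 1.18 with an adjusted p of 0.101. Against LPS 24h, Atf4 did not pass the test in WT (log2 0.96, adjusted p = 0.283) or Irg1-/- (log2 -0.05, adjusted p = 0.984).

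Ddit3, at chr10:127290774-127296288 on the plus strand, encodes CHOP, a partner of C/EBP proteins that is known for its part in cell death under ER stress. It moved in opposite directions at the early and late times. WT Unstim. libraries held 32.7, 27.8 and 24.0 normalized CPM, WT LPS 3h libraries 9.84, 10.9 and 7.82, and WT LPS 24h libraries 60.6, 81.2 and 76.7. Irg1-/- libraries held 20.1, 32.4 and 24.6 in Unstim., 12.8, 9.05 and 7.74 in LPS 3h, and 54.2, 60.8 and 72.8 in LPS 24h. In both genotypes the 3 treatments did not overlap, with LPS 3h lowest and LPS 24h highest.

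Against Unstim., Ddit3 fell 2.95-fold after LPS 3h in WT (log2 -1.56 ± 0.29 SE, adjusted p = 9.15e-05) and 2.59-fold in Irg1-/- (log2 -1.37 ± 0.29 SE, adjusted p = 0.000439). After LPS 24h it rose 2.59-fold in WT (log2 1.37 ± 0.28 SE, adjusted p = 0.000606) and 2.44-fold in Irg1-/- (log2 1.29 ± 0.28 SE, adjusted p = 0.00153). The level stayed high after the second LPS, at 80.8, 94.0 and 113 normalized CPM in WT and 52.0, 62.1 and 76.5 in Irg1-/-. Against LPS 3h this was 10.1-fold higher in WT (log2 3.33 ± 0.31 SE, adjusted p = 3.79e-09) and 6.40-fold higher in Irg1-/- (log2 2.68 ± 0.30 SE, adjusted p = 6.84e-08). In WT the difference was 3.02, 3.09 and 3.83 within the 3 prefixes. These 6 calls held in all fits that left out 1 library, but with the prefix as a term the fall in Irg1-/- was -0.98 with an adjusted p of 0.162.

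The last 68 bases of Ddit3 lie on the opposite strand of Mars, a methionyl-tRNA synthetase gene. The strand setting of the counting is not stated, so reads of the shared stretch are uncertain. Mars itself had a log2 difference of -0.88 (adjusted p = 0.118) after LPS 3h and -0.29 (adjusted p = 0.731) after LPS 24h in WT. In Irg1-/- it was -1.54 (adjusted p = 0.00703) after LPS 3h and 0.08 (adjusted p = 0.944) after LPS 24h. For LPS 24h->LPS 3h versus LPS 3h, Mars was 1.15 higher in WT (adjusted p = 0.0491) and 0.93 in Irg1-/- (adjusted p = 0.112). GENCODE M21 also places another gene entry named Ddit3, on the same strand, and Gm4189, on the opposite strand, over this gene. The part of shared reads in the Ddit3 values was not tested.

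**Figure D2:**
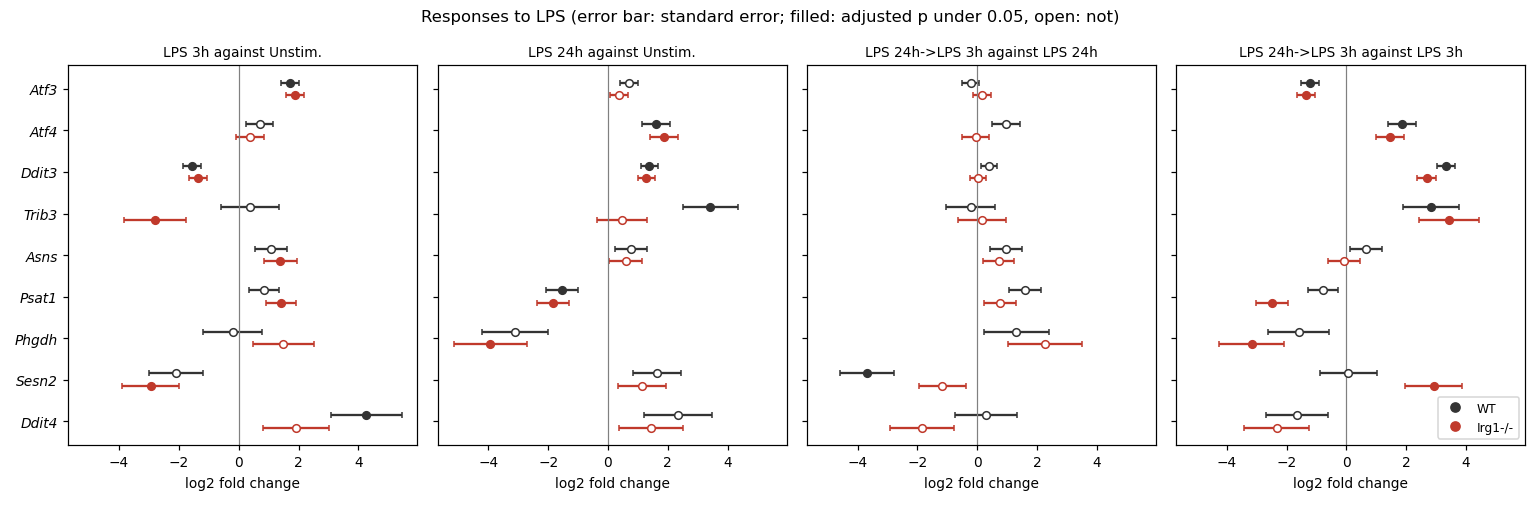
Log2 fold change (x axis) of 9 genes (y axis) in 4 treatment comparisons, in WT and Irg1-/-. Points are edgeR estimates from 3 libraries a group, error bars their standard errors, filled points passed an adjusted p of 0.05 and open points did not. Chac1 is left out because its Irg1-/- Unstim. libraries were all at 0. Ddit3 fell at LPS 3h and rose at LPS 24h in both genotypes.

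Trib3, a pseudokinase gene switched on by ATF4 and CHOP, lies at chr2:152337422-152344032 on the minus strand. In WT it was at 0, 1.91 and 0.488 normalized CPM in Unstim., at 2.55, 0.593 and 0 in LPS 3h, and at 7.06, 9.83 and 7.55 in LPS 24h. The LPS 24h libraries lay above all others of these groups, and Trib3 rose 10.7-fold against Unstim. (log2 3.42 ± 0.92 SE, adjusted p = 0.00848). The call was lost in 1 of 6 fits that left out a library, with an adjusted p of 0.0551 without WT Unstim. replicate 3. The log2 value ranged from 2.79 without WT Unstim. replicate 1 to 4.91 without WT Unstim. replicate 2. In Irg1-/- the levels were 4.52, 2.83 and 0.964 in Unstim., 0.824, 0.159 and 0 in LPS 3h, and 4.94, 3.51 and 2.80 in LPS 24h. Trib3 fell at LPS 3h in Irg1-/- (log2 -2.80 ± 1.03 SE, adjusted p = 0.0328), from 62 counts in the 3 Unstim. libraries to 9. The ratio was 0.204, with a 95% counting interval of 0.0889 to 0.412. The log2 value was -2.16 (adjusted p = 0.149) without Irg1-/- Unstim. replicate 1 and -4.79 without Irg1-/- LPS 3h replicate 1.

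At LPS 24h->LPS 3h, Trib3 was at 10.2, 5.65 and 5.25 normalized CPM in WT and 4.89, 4.21 and 3.42 in Irg1-/-. Against LPS 3h it was 7.05-fold higher in WT (log2 2.82 ± 0.93 SE, adjusted p = 0.0251) and 10.8-fold higher in Irg1-/- (log2 3.43 ± 1.01 SE, adjusted p = 0.0114). Without 1 LPS 3h library, replicate 3, the adjusted p rose to 0.113 in WT and 0.0552 in Irg1-/-. Without LPS 3h replicate 1 the log2 value was 4.42 in WT and 5.46 in Irg1-/-. The WT libraries lay above the Irg1-/- libraries in both late groups, with log2 differences of -1.12 (adjusted p = 0.736) and -0.75 (adjusted p = 0.924) that did not pass the test.

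Chac1, whose product degrades glutathione and which is a common marker of ATF4 activity, lies at chr2:119351229-119354381 on the plus strand and had 0 to 22 counts a library, 11 libraries being at or under 3. Irg1-/- Unstim. libraries had 0 counts each, and Irg1-/- LPS 3h libraries had 6, 11 and 0. That difference passed the test (adjusted p = 0.0315), but the groups overlapped at 0, and no fold is given. In WT, LPS 24h libraries had 4, 0 and 0 counts and LPS 24h->LPS 3h libraries 5, 12 and 22, which did not overlap. That difference did not pass (adjusted p = 0.368), and the counts gave a ratio of 9.30 with a 95% counting interval of 3.36 to 35.8.

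Asns, asparagine synthetase, lies at chr6:7675169-7693254 on the minus strand. In WT it was at 5.54, 3.63 and 6.29 normalized CPM in Unstim. and at 7.84, 13.99 and 10.7 in LPS 3h. These did not overlap, but the difference did not pass (log2 1.07, adjusted p = 0.127). In Irg1-/- it was at 5.92, 0.754 and 5.03 in Unstim. and at 11.4, 13.97 and 6.16 in LPS 3h. Asns rose 2.63-fold there (log2 1.39 ± 0.55 SE, adjusted p = 0.0468). Irg1-/- Unstim. replicate 2, with 4 counts, was far below its group, and without it the value was 1.01 with an adjusted p of 0.164. The highest mean was in WT LPS 24h->LPS 3h, which overlapped the next group, at 19.1, 19.4 and 12.8, against 9.64, 12.3 and 7.82 in Irg1-/-.

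Psat1 and Phgdh encode enzymes of serine synthesis, and both had their lowest means at LPS 24h in each genotype. Psat1, at chr19:15904678-15947337 on the minus strand, was at 3.67, 5.25 and 6.29 normalized CPM in WT Unstim. and at 3.17, 1.70 and 0.478 in WT LPS 24h. In Irg1-/- it was at 6.55, 4.71 and 4.603 in Unstim. and at 1.56, 1.61 and 1.27 in LPS 24h. LPS 24h libraries lay below Unstim. in both genotypes. Psat1 fell 2.88-fold in WT (log2 -1.53 ± 0.53 SE, adjusted p = 0.0459) and 3.55-fold in Irg1-/- (log2 -1.83 ± 0.53 SE, adjusted p = 0.017). Without WT LPS 24h replicate 3 the WT value was -1.13 with an adjusted p of 0.177, and without Irg1-/- LPS 24h replicate 3 the adjusted p in Irg1-/- was 0.0766.

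LPS 3h libraries held 10.0, 6.88 and 10.7 normalized CPM of Psat1 in WT and 9.78, 16.0 and 16.4 in Irg1-/-. The rise against Unstim. passed in Irg1-/- (2.66-fold, log2 1.41 ± 0.51 SE, adjusted p = 0.0307) and did not in WT (log2 0.86, adjusted p = 0.202). The Irg1-/- call was lost in 4 of 6 fits without 1 library, with the largest adjusted p, 0.0761, without Irg1-/- Unstim. replicate 3. Its difference between genotypes was 0.55 (adjusted p = 0.989). After the second LPS, Psat1 was at 5.995, 3.80 and 6.22 in WT and at 1.10, 3.99 and 2.43 in Irg1-/-. Against LPS 3h it was 5.58-fold lower in Irg1-/- (log2 -2.48 ± 0.53 SE, adjusted p = 0.000615), a call that held in all 6 fits without 1 library. In WT the value was -0.78 (adjusted p = 0.263), and the difference between genotypes, -1.70, did not pass (adjusted p = 0.615).

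Phgdh, at chr3:98313170-98339990 on the minus strand, had 17, 27 and 104 counts in WT Unstim. and 7, 2 and 0 in WT LPS 24h. That difference did not pass (log2 -3.12, adjusted p = 0.052). In Irg1-/-, Unstim. libraries had 6, 1 and 35 counts and LPS 24h libraries 0, 2 and 1. The fall passed the test (adjusted p = 0.0272), and the counts gave a ratio of 0.0413 with a 95% counting interval of 0.00819 to 0.129. Without Irg1-/- Unstim. replicate 3 the adjusted p was 0.148. For LPS 24h->LPS 3h versus LPS 3h, Irg1-/- libraries had 1, 4 and 8 counts against 29, 23 and 13 (log2 -3.16 ± 1.09 SE, adjusted p = 0.03). That call was lost without Irg1-/- LPS 24h->LPS 3h replicate 1, with an adjusted p of 0.116.

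Sesn2, a sestrin that restrains mTORC1 when leucine is short, lies at chr4:132492032-132510501 on the minus strand. It was at 7.01, 6.22 and 6.48 normalized CPM in Irg1-/- Unstim. and at 1.24, 0 and 1.23 in Irg1-/- LPS 3h, a 7.69-fold fall (log2 -2.94 ± 0.95 SE, adjusted p = 0.016). The adjusted p was 0.0888 without Irg1-/- LPS 3h replicate 2. In WT it was at 5.80, 3.82 and 6.68 in Unstim. and at 2.01, 0.474 and 1.46 in LPS 3h, without overlap, and did not pass (log2 -2.09, adjusted p = 0.0762).

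The late Sesn2 levels rested on single libraries. WT LPS 24h libraries held 5.72, 7.06 and 38.5 normalized CPM, Irg1-/- LPS 24h libraries 5.68, 10.3 and 27.4, and Irg1-/- LPS 24h->LPS 3h libraries 0.803, 3.05 and 15.6. Replicate 3 was the highest in each. WT LPS 24h->LPS 3h libraries held 2.19, 1.75 and 0.162, which was 12.8-fold below WT LPS 24h (log2 -3.67 ± 0.91 SE, adjusted p = 0.0152). Without WT LPS 24h replicate 3 this was -2.21 with an adjusted p of 0.24, and within the 3 prefixes it was -1.32, -1.91 and -6.84. For LPS 24h->LPS 3h versus LPS 3h in Irg1-/-, the groups overlapped and the value of 2.92 (adjusted p = 0.0209) became 1.15 (adjusted p = 0.405) without Irg1-/- LPS 24h->LPS 3h replicate 3. Within the prefix that holds both of these groups it was -0.53, the opposite direction.

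Ddit4, at chr10:59949669-59951834 on the minus strand, encodes REDD1, another inhibitor of mTORC1. WT Unstim. libraries had 1, 1 and 4 counts and WT LPS 3h libraries 17, 22 and 15. Ddit4 rose (log2 4.27 ± 1.17 SE, adjusted p = 0.00524), with a ratio of 19.5 and a 95% counting interval of 8.40 to 55.4. In Irg1-/- the counts were 4, 0 and 8 in Unstim. and 12, 11 and 7 in LPS 3h. In normalized CPM these did not overlap, and the difference did not pass (log2 1.91, adjusted p = 0.179). The difference between genotypes in this response was -2.36 (adjusted p = 0.951).

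The comparison of genotypes asks whether loss of itaconate synthesis changed these genes. No member passed for Irg1-/- against WT with edgeR in any of the 4 treatments. Among all genes, 0.0421% passed in Unstim., 0.00842% in LPS 3h, 0.598% in LPS 24h and 0.118% in LPS 24h->LPS 3h. An unadjusted p under 0.05 was seen for 0 members in Unstim., LPS 3h and LPS 24h and for 3 in LPS 24h->LPS 3h. DESeq2 also called 0 in each. The 3 were Ddit3 (log2 -0.60 ± 0.28 SE, adjusted p = 0.608), Psat1 (log2 -1.09 ± 0.51 SE, adjusted p = 0.617) and Sesn2 (log2 2.27 ± 0.88 SE, adjusted p = 0.44). Ddit3 libraries of the genotypes did not overlap there, and those of Psat1 and Sesn2 did.

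Atf3 differed by -0.22 ± 0.29 SE in Unstim., -0.06 ± 0.29 in LPS 3h, -0.56 ± 0.29 in LPS 24h and -0.17 ± 0.29 in LPS 24h->LPS 3h, on the log2 scale. Atf4 differed by 0.32 ± 0.45 SE, 0.00 ± 0.45, 0.60 ± 0.45 and -0.40 ± 0.45 in the same order. Ddit3 differed by -0.13 ± 0.28 SE in Unstim., 0.06 ± 0.30 in LPS 3h, -0.22 ± 0.28 in LPS 24h and -0.60 ± 0.28 in LPS 24h->LPS 3h. The Atf3 value in LPS 24h and the last Ddit3 value were the ones furthest from 0 relative to their errors, with unadjusted p-values of 0.0658 and 0.0404. Several of these values changed sign when 1 library was left out. The sign of the Atf4 value in LPS 3h also changed with the scaling.

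The differences between genotypes in the responses to LPS likewise gave 0 members past the threshold with edgeR and DESeq2. For LPS 3h against Unstim. 0.00842% of all genes passed, for LPS 24h against Unstim. 0.21%, for LPS 24h->LPS 3h versus LPS 24h 0.00842% and for LPS 24h->LPS 3h versus LPS 3h 0%. Unadjusted p-values under 0.05 numbered 1, 1, 1 and 2 among the members. Trib3 gave the first pair, with differences of -3.18 ± 1.42 SE (adjusted p = 0.837) and -2.95 ± 1.23 SE (adjusted p = 0.479). A member that passed in 1 genotype alone is therefore not shown to respond differently in the other.

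Other genes of the pathway were taken from 8 lists holding 93 genes, of which 88 passed the filter on low counts. In WT, 29 of the 88 passed after LPS 3h, 19 higher and 10 lower, close to the 32% of all genes. After LPS 24h in WT 23 passed, 21 higher and 2 lower, beside 16.2% of all genes. In Irg1-/-, 26 passed after LPS 3h, 16 higher and 10 lower, a share below the 35.9% of all genes, and 14 after LPS 24h, 12 higher and 2 lower, beside 13.7%. For LPS 24h->LPS 3h versus LPS 24h, 3 were higher and 0 lower in WT, and 5 and 0 in Irg1-/-, beside 3.99% and 5.14% of all genes. For LPS 24h->LPS 3h versus LPS 3h, 11 were higher and 9 lower in WT, and 3 and 10 in Irg1-/-, beside 25.5% and 27.2% of all genes. The median log2 difference of the 88 genes after LPS 24h was 0.43 in WT and 0.17 in Irg1-/-, beside 0.00 over all genes.

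**Figure D3:**
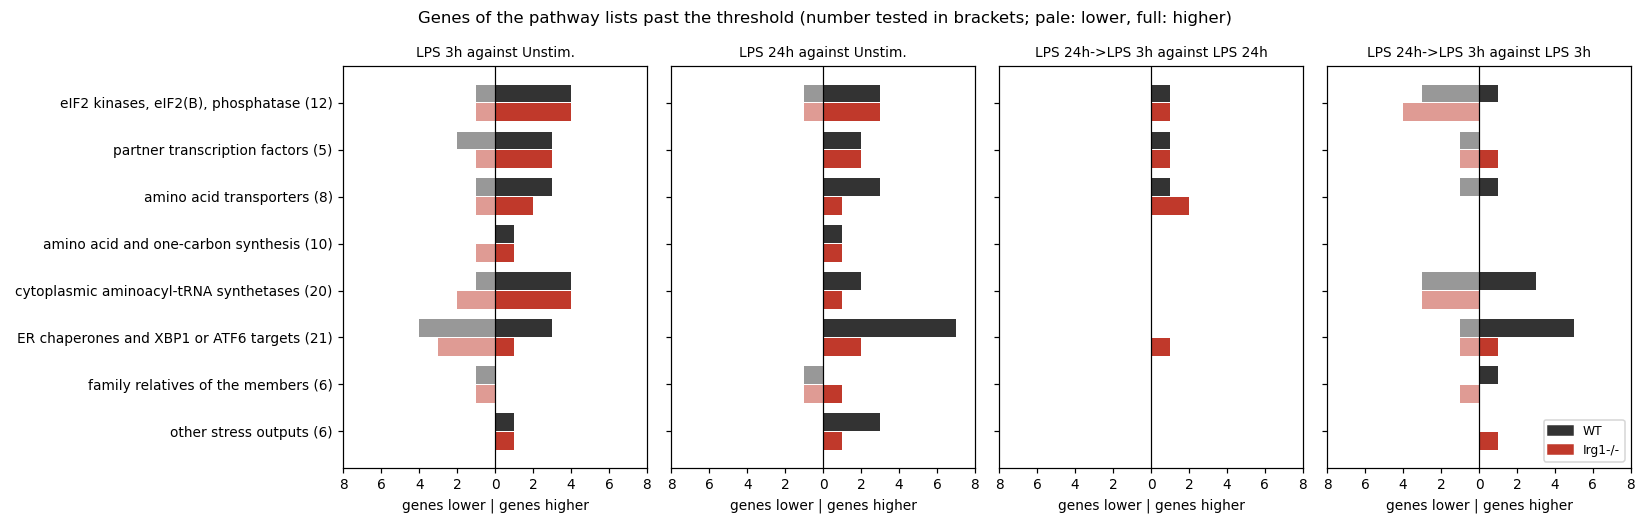
Number of genes past an adjusted p of 0.05 (x axis, lower to the left and higher to the right of 0) in each of 8 pathway lists (y axis, number tested in brackets) for 4 treatment comparisons in WT and Irg1-/-. Of 21 genes for ER chaperones and XBP1 or ATF6 targets, 7 were higher in WT and 2 in Irg1-/- after LPS 24h, beside 9.25% and 7.31% of all genes. For the difference between genotypes in this response, 0 of the 21 passed, beside 0.21% of all genes.

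Among the 12 genes for eIF2 kinases, eIF2, its exchange factor and phosphatase subunits, 4 rose and 1 fell after LPS 3h in each genotype, beside 32% of all genes in WT and 35.9% in Irg1-/-. Eif2ak2, the kinase PKR that senses double-stranded RNA, rose 10.5-fold after LPS 3h in WT (adjusted p = 3.55e-08) and 11.8-fold in Irg1-/- (adjusted p = 1.63e-08). It was also higher after LPS 24h, 5.87-fold in WT and 3.94-fold in Irg1-/- (adjusted p = 7e-06 and 0.000255). Ppp1r15a, which encodes the inducible subunit that returns eIF2 to its active state, went from 27.3 ± 10.1 normalized CPM (SD, n = 3) to 296 ± 25.0 in WT and from 21.6 ± 2.37 to 295 ± 100 in Irg1-/-. Against LPS 3h it was 4.08-fold lower after LPS 24h->LPS 3h in WT (adjusted p = 2.29e-05) and 4.16-fold lower in Irg1-/- (adjusted p = 1.6e-05). Eif2ak3, the kinase PERK that senses ER stress, fell in Irg1-/- after LPS 3h (log2 -2.81 ± 0.64 SE, adjusted p = 0.000911) and LPS 24h (log2 -1.79 ± 0.59 SE, adjusted p = 0.0395), the latter call being lost in 4 of 6 fits without 1 library. In WT the mean of Eif2ak3 was 8.32 normalized CPM in Unstim., 2.93 in LPS 3h and 4.99 in LPS 24h, without a call. Eif2ak4, the kinase GCN2 that senses uncharged tRNA, fell in WT after LPS 3h (log2 -1.62 ± 0.40 SE, adjusted p = 0.00198) and LPS 24h (log2 -1.27 ± 0.39 SE, adjusted p = 0.0228), the latter call being lost in 3 of 6 fits without 1 library. In Irg1-/- the mean of Eif2ak4 was 28.4 normalized CPM in Unstim., 15.8 in LPS 3h and 32.8 in LPS 24h, without a call.

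Of 5 partner transcription factors, 3 rose in each genotype after LPS 3h, while 2 fell in WT and 1 in Irg1-/-, beside 32% and 35.9% of all genes. Nupr1, a stress-induced chromatin protein, rose 59.5-fold in WT (log2 5.90 ± 0.49 SE, adjusted p = 2.79e-11) and 48.2-fold in Irg1-/- (log2 5.59 ± 0.49 SE, adjusted p = 8.89e-11). Jdp2, a relative of Atf3, rose 31.1-fold in WT (log2 4.96, adjusted p = 5.13e-06) and 23.0-fold in Irg1-/- (adjusted p = 1.93e-05). The WT LPS 3h libraries held 226, 795 and 126 normalized CPM, and the log2 value was 3.88 without WT LPS 3h replicate 2 and 6.50 without WT Unstim. replicate 3. Cebpb rose 5.41-fold in WT and 5.39-fold in Irg1-/- after LPS 3h (adjusted p = 2.22e-05 and 2.29e-05), and 7.40-fold in WT and 2.56-fold in Irg1-/- after LPS 24h (adjusted p = 4.54e-06 and 0.0198).

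Of 8 amino acid transporters tested, 3 rose in WT and 2 in Irg1-/- after LPS 3h, and 1 fell in each, beside 32% and 35.9% of all genes. Slc7a11, the cystine importer that feeds glutathione synthesis, went from 10.0 ± 1.54 normalized CPM (SD, n = 3) to 764 ± 244 in WT and from 7.52 ± 2.60 to 695 ± 252 in Irg1-/-. Slc38a2, a neutral amino acid transporter, fell 4.87-fold in WT (adjusted p = 3.29e-05). Its mean in Irg1-/- went from 126 to 47.9 normalized CPM. Of 10 genes for amino acid and one-carbon synthesis, 1 rose in each genotype at both times, while 1 fell in Irg1-/- after LPS 3h. Of all genes, 32% passed in WT and 35.9% in Irg1-/- after LPS 3h, and 16.2% and 13.7% after LPS 24h. Mthfd2, a mitochondrial one-carbon enzyme, was the one that rose, by 5.98-fold in WT and 4.22-fold in Irg1-/- after LPS 24h (adjusted p = 5.89e-07 and 1.95e-05). Of 20 cytoplasmic aminoacyl-tRNA synthetases, 4 rose in each genotype after LPS 3h, and 1 fell in WT and 2 in Irg1-/-, which are smaller shares than the 32% and 35.9% of all genes.

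Of 21 genes for ER chaperones and XBP1 or ATF6 targets, 3 rose and 4 fell in WT after LPS 3h, and 1 rose and 3 fell in Irg1-/-, beside 32% and 35.9% of all genes. After LPS 24h, 7 rose in WT and 2 in Irg1-/-, beside 16.2% and 13.7% of all genes, and none fell in edgeR's test. For the difference between genotypes in this response, 0 of the 21 passed, beside 0.21% of all genes. Ern1, the ER stress sensor IRE1, fell after LPS 3h in WT (log2 -1.90 ± 0.38 SE, adjusted p = 0.00023) and Irg1-/- (log2 -1.55 ± 0.38 SE, adjusted p = 0.00201). Among 6 relatives of the members, Sesn1 fell from 43.7 ± 1.09 normalized CPM (SD, n = 3) to 1.04 ± 1.01 after LPS 3h in WT and from 57.5 ± 8.39 to 1.42 ± 1.72 in Irg1-/-. Sesn3, the other sestrin, had its highest Irg1-/- mean at LPS 3h, 8.28 ± 5.03 (SD, n = 3) against 2.93 ± 2.56 in Unstim., and was 6.19-fold lower in Irg1-/- LPS 24h->LPS 3h than in LPS 3h (adjusted p = 0.00778).

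At LPS 24h, 0 of the 88 genes were higher in Irg1-/- than in WT and 3 were lower: Gdf15, Slc7a11 and Ppp1r15a. Of all genes, 0.598% passed there in either direction. Slc7a11 libraries held 134, 122 and 205 normalized CPM in WT and 58.6, 48.4 and 53.9 in Irg1-/-, a 2.87-fold difference (log2 -1.52 ± 0.31 SE, adjusted p = 0.0203). Ppp1r15a libraries held 35.3, 58.9 and 94.2 in WT and 23.3, 18.9 and 30.6 in Irg1-/- (log2 -1.37 ± 0.32 SE, adjusted p = 0.0371). Gdf15, a secreted stress cytokine gene, held 36.9, 68.3 and 77.9 in WT and 23.0, 13.4 and 11.8 in Irg1-/- (log2 -1.93 ± 0.43 SE, adjusted p = 0.0274). WT lay above Irg1-/- in every library of these 3 genes. Each call was lost in 4 or 5 of the 6 fits without 1 library, with the largest adjusted p at 0.176 for Slc7a11 and 0.48 for Ppp1r15a without WT LPS 24h replicate 3, and 0.19 for Gdf15 without Irg1-/- LPS 24h replicate 3. All 3 Irg1-/- LPS 24h libraries carry 1 label prefix, which of the WT LPS 24h libraries only replicate 1 carries, the lowest of the WT libraries for Ppp1r15a and Gdf15. With the prefix as a term the log2 difference of Gdf15 was -1.14 (adjusted p = 0.237) and that of Ppp1r15a -1.17 (adjusted p = 0.236), neither past the threshold, while Slc7a11 passed (log2 -1.73, adjusted p = 0.0103). The number of all genes past the threshold at LPS 24h fell from 71 to 12 with the prefix as a term and to 3 with the compared groups alone, where none of these 3 genes passed. In the other 3 treatments 0 of the 88 genes passed. For the differences between genotypes in the 4 responses to LPS, 0 of the 88 passed in each, beside at most 0.21% of all genes.

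**Figure D4:**
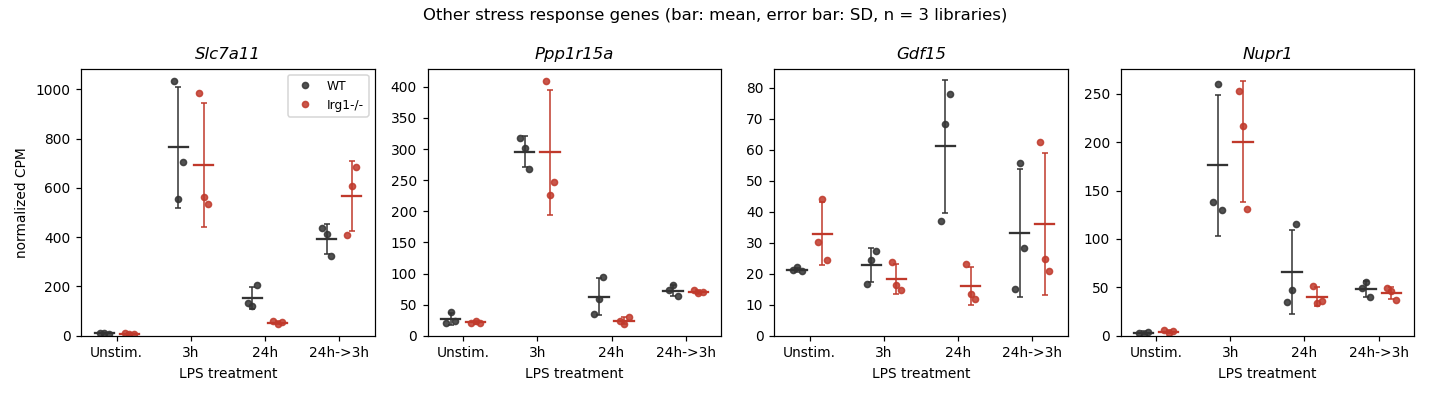
Level of Slc7a11, Ppp1r15a, Gdf15 and Nupr1 in normalized CPM (y axis, from 0) by LPS treatment (x axis) in WT and Irg1-/- BMDMs. Points are libraries, horizontal bars means and error bars the SD of 3 libraries. At LPS 24h the Irg1-/- libraries of the first 3 genes lie below the WT libraries.

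The genes whose pattern was most like that of Atf3 were found by the root mean square difference of centred log2 levels over the 8 group means, among 10779 genes. They were Cldnd1 at 0.0629, Triobp at 0.118, Ankib1 at 0.119, Atp9b at 0.142 and Wdr37 at 0.148, where Atf3 itself ranged over 1.98. For Atf4, which ranged over 2.41, they were Cd52 at 0.148, Lrpap1 at 0.195, Grina at 0.209, Serp1 at 0.217 and Morn2 at 0.233. None of these 10 genes is among the other members. Chac1 had too few counts for this comparison.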

How the data were processed

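3′-end libraries were made by the authors with oligo-dT primers carrying sample barcodes and 12 PCR cycles, and they aligned reads to mm10 with STAR. The deposited values are whole-number counts per gene, not normalized. The counting program, annotation and strand setting are not given in the sources used here. Reads on no feature (22.1% to 33.7%) and other summary lines were left out.

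Counts were tested with edgeR 4.0.16 in R 4.3.3 (TMM, filterByExpr, glmQLFit and glmQLFTest) in a model of 8 groups and 24 libraries, over 16 comparisons, with Benjamini-Hochberg adjustment over 11878 genes and a threshold of 0.05. The standard error is the log2 fold change divided by the square root of F. DESeq2 1.42.0, other scalings, filters, designs and leaving out each library were alternatives. Ratios of low counts carry exact binomial 95% intervals, which cover counting error only. The scripts were tested on simulated data.

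The members and lists were chosen with earlier results of these data known. Listed genes named beside the members came from, per comparison, up to 3 highest and 3 lowest genes past the threshold without overlap. Not every gene so picked is named, and some values are from comparisons other than the one that picked the gene. Also named were the 5 genes most like each of Atf3 and Atf4.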

Additional observations from a re-analysis of the deposited data

How the results depend on the processing

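Depth limits Chac1, Ddit4 and Phgdh most. Numbers of members past the threshold moved as follows. When each fit held the compared groups alone, they were 5 for LPS 3h against Unstim. in WT, 4 for the same in Irg1-/- and 0 for LPS 24h->LPS 3h versus LPS 24h in WT, where DESeq2 gave 2. Of all genes, 36.2%, 31% and 1.05% passed in these fits, and 6.45% with DESeq2. With the label prefix as a term, they were 1 for LPS 3h against Unstim. and 2 for LPS 24h->LPS 3h versus LPS 3h, both in Irg1-/-. Of all genes, 19.9% and 11.8% passed there, against 35.9% and 27.2% in the main fit. With no filter on low counts, 1 member, Sesn2 (adjusted p = 0.0122), passed for Irg1-/- against WT in LPS 24h->LPS 3h, beside 0.831% of all genes. The Sesn2 groups overlapped, and within the prefixes that hold both groups the log2 differences were 1.59 and -0.98. The causes were not tested.

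Leaving out 1 library gave 2 to 5 members for LPS 24h against Unstim. in WT and 1 to 4 in Irg1-/-, 0 to 2 for LPS 24h->LPS 3h versus LPS 24h in WT, 2 to 6 for LPS 3h against Unstim. in Irg1-/- and 4 to 6 for LPS 24h->LPS 3h versus LPS 3h in Irg1-/-. The share of all genes was not taken in these fits.

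The Atf4 difference between genotypes in LPS 3h changed sign to 0.0184 with DESeq2 and with its size factors, 0.00214 with TMM without the 20 genes with the most counts, 0.00587 with a mean of 10 counts as filter and 0.0266 with the compared groups alone. Without 1 library, genotype differences of Atf4 ranged from -0.16 to 0.59 in Unstim., -0.26 to 0.33 in LPS 3h, -0.33 to 0.97 in LPS 24h and -0.68 to 0.32 in LPS 24h->LPS 3h. Those of Atf3 ranged from -0.31 to 0.12 in LPS 3h and -0.28 to 0.00997 in LPS 24h->LPS 3h, and those of Ddit3 from -0.33 to 0.0165 in Unstim. and -0.17 to 0.20 in LPS 3h.

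For single genes, 91 of the values without 1 library and 41 under other alternatives kept their direction but lost the call. Same-numbered libraries did not correlate above 0.1 in every pair of any comparison, and the main model did not pair them. That rule cannot exclude pairing. For LPS 24h->LPS 3h versus LPS 24h in Irg1-/- the values were 0.113, 0.0639 and 0.337, beside a mean of -0.0855 for other pairs. For LPS 3h against Unstim. in WT they were -0.0499, -0.102 and -0.0876, beside 0.0399. In WT, same-numbered libraries of the LPS groups share a label prefix. With a replicate block, 3 members passed for LPS 24h against Unstim. in WT, where Psat1 had an adjusted p of 0.0536, and 6 for LPS 3h against Unstim. in Irg1-/-, where Asns had 0.0665. Of all genes, 17% and 37% passed there.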
